A study of Homo sapiens with 5 samples.

Results

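The genes described here are the TGF-beta ligands TGFB1, TGFB2 and TGFB3, the receptors TGFBR1, TGFBR2 and TGFBR3, and the latent TGF-beta binding proteins LTBP1, LTBP2, LTBP3 and LTBP4. These 10 genes, chosen by name, were examined for peaks of the transcription factor TEAD4 among the 20007 protein-coding genes of the annotation. A peak was linked to a gene when its summit, the position of its highest signal, lay in the gene body or within 50 kb of any transcription start site (TSS) of the gene. Of the 21113 TEAD4 peaks in the genome, 41 were linked to these genes.

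The peaks came from chromatin immunoprecipitation sequencing (ChIP-seq) of LX-2, an established line of human hepatic stellate cells used to model liver myofibroblasts, in cultures that had received only the solvent DMSO. There were 3 TEAD4 samples and 2 input samples, one input being shared by replicates 1 and 2 and the other belonging to replicate 3, and all carried the same treatment. The authors left out replicate 2, having found only replicates 1 and 3 concordant enough. They deposited 1 list of peaks for replicates 1 and 3 together. No peak therefore has a value per sample, no spread between replicates can be given and the depth of each sample is unknown. With 1 condition and 1 list, the values below describe binding sites in these cells and no difference was tested.

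TGF-beta is secreted in a latent form, held by its own propeptide, and the latent binding proteins attach this complex to the extracellular matrix until integrins, proteases or thrombospondin release the ligand. The free ligand binds TGFBR2, which phosphorylates TGFBR1, and TGFBR1 passes the signal to SMAD transcription factors, while TGFBR3 (betaglycan) presents ligand to the signalling receptors. In the liver, TGF-beta is a main driver of the turn of stellate cells into matrix-producing myofibroblasts. TEAD4 belongs to a family of DNA-binding factors that recruit the coactivators YAP1 and TAZ to a short motif.

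The sequences that carry this motif at the ligand genes are shown first, because all 3 peaks of TGFB1 had it, of which 2 are printed. Each line gives the peak by its gene and the distance of its summit from the 5′ end of the gene, positive in the direction of transcription, then its hg38 coordinates and the plus strand from 5′ to 3′. Capitals mark the TEAD motif ACATTCC, which reads GGAATGT where it lies on the minus strand.
TGFB1 +13.8 kb, chr19:41340095-41340214: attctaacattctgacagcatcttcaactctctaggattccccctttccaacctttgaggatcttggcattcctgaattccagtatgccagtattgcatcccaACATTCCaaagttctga
TGFB1 −14.2 kb, chr19:41368022-41368122: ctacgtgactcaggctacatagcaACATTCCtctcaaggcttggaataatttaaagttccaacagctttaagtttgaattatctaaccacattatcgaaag
TGFB2 −0.2 kb, chr1:218345123-218345223: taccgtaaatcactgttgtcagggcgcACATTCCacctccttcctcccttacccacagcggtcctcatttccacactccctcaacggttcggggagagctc
TGFB2 +5.8 kb, chr1:218351076-218351191: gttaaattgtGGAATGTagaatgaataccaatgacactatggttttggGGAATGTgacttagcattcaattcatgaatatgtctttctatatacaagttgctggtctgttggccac
At the receptor genes the motif was found at 3 peaks, all printed here. The one in the first part of TGFBR1 lay near a TSS, with its summit 1 bp from the centre of the motif.
TGFBR1 −49.3 kb, chr9:99054714-99054814: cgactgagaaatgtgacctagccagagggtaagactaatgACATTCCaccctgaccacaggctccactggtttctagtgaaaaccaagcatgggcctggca
TGFBR1 +2.0 kb, chr9:99105948-99106048: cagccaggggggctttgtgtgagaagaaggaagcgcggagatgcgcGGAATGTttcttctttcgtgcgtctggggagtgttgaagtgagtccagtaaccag
TGFBR3 +169.2 kb, chr1:91737094-91737205: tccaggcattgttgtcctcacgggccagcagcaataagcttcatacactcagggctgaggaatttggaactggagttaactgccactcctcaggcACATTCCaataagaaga
At the genes of the latent binding proteins the motif was found at 2 peaks, both far from the start of the gene.
LTBP1 +408.2 kb, chr2:33355091-33355191: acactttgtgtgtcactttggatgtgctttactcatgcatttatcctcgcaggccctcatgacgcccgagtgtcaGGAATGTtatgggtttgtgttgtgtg
LTBP2 +125.6 kb, chr14:74486717-74486817: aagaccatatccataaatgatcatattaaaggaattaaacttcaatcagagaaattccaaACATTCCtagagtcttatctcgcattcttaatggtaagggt

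Of the 10 genes, 9 had at least 1 linked peak (90%, Wilson 95% interval 59.6 to 98.2%), against 56.2% of all protein-coding genes. TGFB3 was the exception. The members had a median of 4 peaks (range 0 to 8) and all protein-coding genes a median of 1 (range 0 to 32). The stretch searched was longer for the members, with a median of 158.7 kb against 112.4 kb. Per 100 kb searched, the members had a median of 2.05 peaks and all protein-coding genes 0.667. A summit lay within 2.5 kb of a TSS in 3 of the 10 genes (30%, interval 10.8 to 60.3%), which were TGFB1, TGFB2 and TGFBR1, against 16.7% of all protein-coding genes. Intervals cover counting error over genes or peaks only, and peaks of 1 gene are not independent of each other.

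**Figure D1:**
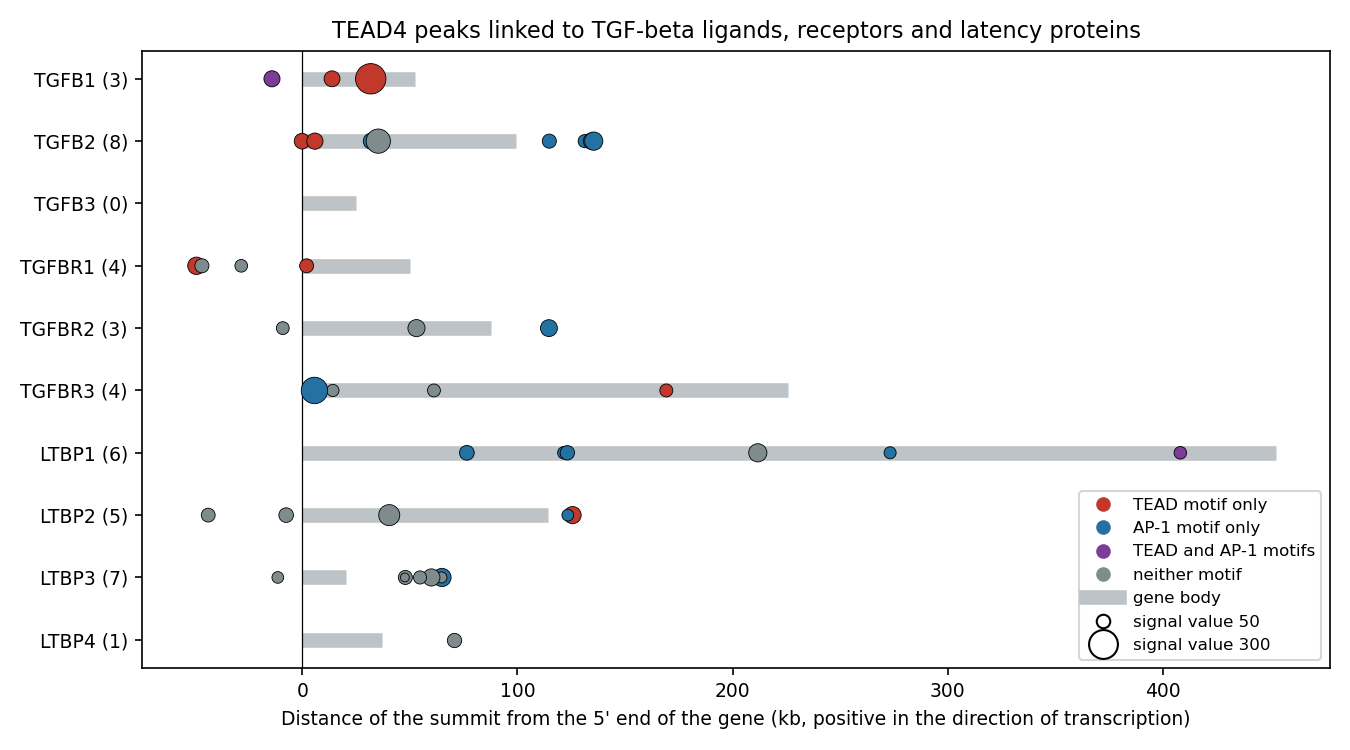
Position of the 41 linked TEAD4 summits (circles) along each gene in kb from its 5′ end, one gene per line with its number of peaks in brackets and the gene body as a grey bar. Circle area grows with the signal value and colour gives the motifs within 100 bp of the summit; the peaks of LTBP1 and TGFBR3 lie inside the genes, those of LTBP3 and LTBP4 outside.

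Of the 41 summits, 18 lay in introns of the member, 9 upstream of it and 14 downstream, and none lay in an exon of the member. The share in the gene body (43.9%, interval 29.9 to 59.0%) was close to that of all links between peaks and protein-coding genes (41.6%). Only 3 of the 41 (7.32%, interval 2.52 to 19.4%) were within 2.5 kb of a TSS of the member, against 15.4% of all links. For 26 of the 41 peaks (63.4%, interval 48.1 to 76.4%) the closest protein-coding TSS was that of the member, against 54.8% of all links. A link by distance gives the place of a peak and does not show which gene it acts on, and the other 15 peaks were closer to another protein-coding gene.

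The signal value was taken as the strength that the authors' list gave each peak, on a scale that is not known. It had a median of 59.7 over the 41 peaks (interval 46.6 to 81.4) and of 68.1 over the whole list. It ranged from 9.81 to 335.2, and 18 of the 41 peaks (43.9%) were above the median of the list. The highest score for agreement between the replicates (1000) was reached by 29 of the 41 (70.7%, interval 55.5 to 82.4%) and by 76.1% of all peaks. This score covers only replicates 1 and 3, which the authors kept for their agreement. By role, the median signal value was 81.3 over 11 peaks of ligands (interval 56.2 to 205.6), 54.7 over 11 peaks of receptors (interval 41.8 to 96.3) and 55.9 over 19 peaks of latent binding proteins (interval 35.8 to 93.0). These intervals overlap.

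**Figure D2:**
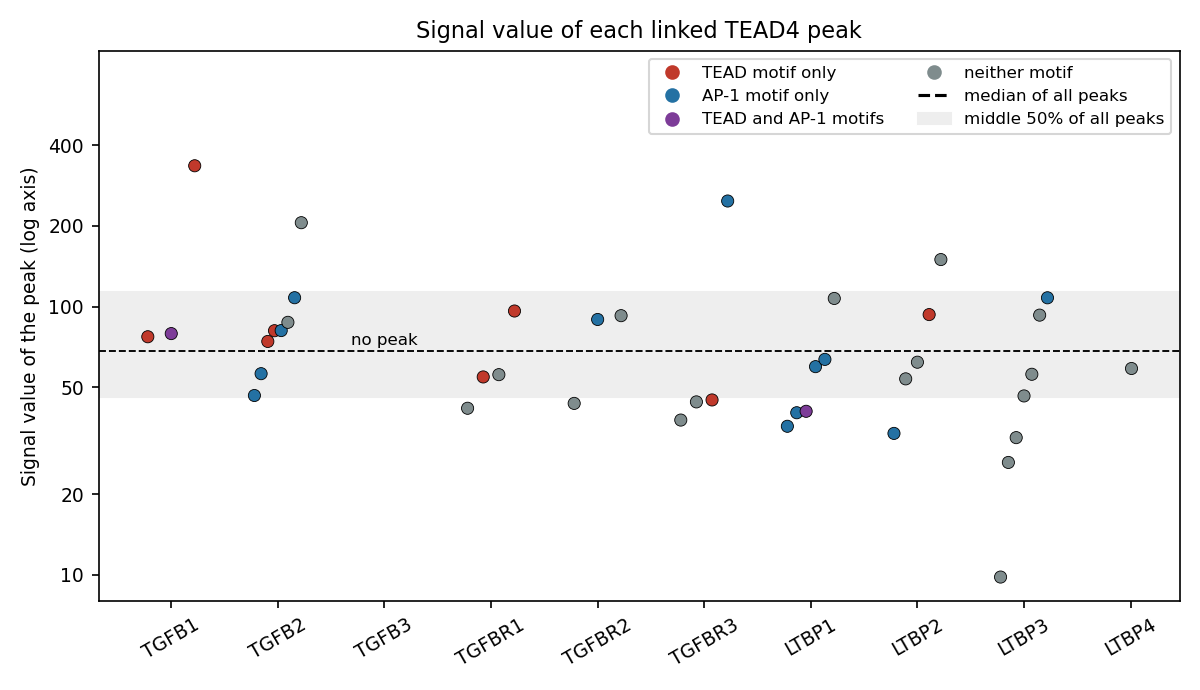
Signal value of each linked peak on a log axis, by gene, with the median of all peaks as a dashed line and their middle 50% as a grey band. Each point is 1 peak, spread sideways for visibility; the 3 highest points belong to TGFB1, TGFBR3 and TGFB2, and the lowest, at 9.81, belongs to LTBP3.

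TGFB1, the main ligand of the family in fibrosis, lies on chromosome 19 from 41301587 to 41353922 on the minus strand and had 3 linked peaks, a number reached or passed by 19.5% of protein-coding genes. Its strongest peak had a signal value of 335.2, the highest of all 41 and rank 545 in the list. The summit lay in an intron of TGFB1 31.8 kb from the 5′ end, and in an intron of CCDC97 as well, whose TSS was closer (2421 bp). The motif centre was 9 bp from this summit. The second intronic peak, from 41340089 to 41340217, had a signal value of 77.2 and was 1885 bp from an internal TSS, with the motif 56 bp from its summit. The third, from 41367850 to 41368293, had a signal value of 79.3 and was 14150 bp upstream, in an intron of TMEM91, and its closest protein-coding TSS was that of B9D2 (3907 bp). This last peak also held an AP-1 motif, 42 bp from the summit. All 3 peaks of TGFB1 were above the median signal value of the list.

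TGFB2 encodes another secreted ligand and had the most peaks of the 10 genes. It lies on chromosome 1 from 218345336 to 218444619 on the plus strand, and its 8 peaks are a number reached or passed by 2.07% of protein-coding genes. For all 8 the closest protein-coding TSS was that of TGFB2. One peak, from 218344951 to 218345394, covered a TSS of the gene, with its summit 163 bp upstream in an exon of the antisense lncRNA TGFB2-AS1, a signal value of 74.2 and a TEAD motif 20 bp from the summit. It was the only one of the 41 with its summit inside a promoter of a member as RefSeq (GRCh38.p14) defines the start, 250 bp before to 50 bp after it. Among 23 such promoters of the members, 2 were overlapped by a peak, and 1, that of TGFB2, held the TEAD motif, which 3.46% of 35116 promoters hold. A summit lay inside 3.27% of those 35116 promoters.

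Within TGFB2, the peak 5.8 kb from the 5′ end had a signal value of 81.3 and was the only one of the 41 with a pair of TEAD motifs, 14 and 52 bp from the summit. The strongest peak of the gene, from 218380497 to 218380793, lay 35.3 kb from the 5′ end in an intron, with a signal value of 205.6 (rank 1821). It held neither the full TEAD motif nor the AP-1 motif. A shorter core of the TEAD motif, CATTCC, was centred 10.5 bp from its summit, a core present in 46.8% of all peaks. Another intronic peak 32.1 kb from the 5′ end had a signal value of 81.4 and an AP-1 motif. The other 4 lay beyond the 3′ end in intronic sequence of the lncRNA LINC02869, with signal values of 56.2, 46.6, 87.4 and 108.0, and an AP-1 motif in 3 of them. The first of these was 873 bp from a TSS of LINC02869. All 4 were linked through a TSS annotated inside TGFB2, and with the 5′ end as the only TSS the gene had 4 peaks.

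TGFB3, the remaining ligand, lies on chromosome 14 from 75958097 to 75983011 on the minus strand and had no linked peak. The nearest summit was 312493 bp from a TSS of the gene, had a signal value of 240.5 and was closest to FLVCR2 among protein-coding genes. Widening the link to 100 kb added none, while the number rose to 13 for TGFB2 and stayed at 3 for TGFB1. Its absence from the list says only that no peak passed the authors' threshold there.

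**Figure D3:**
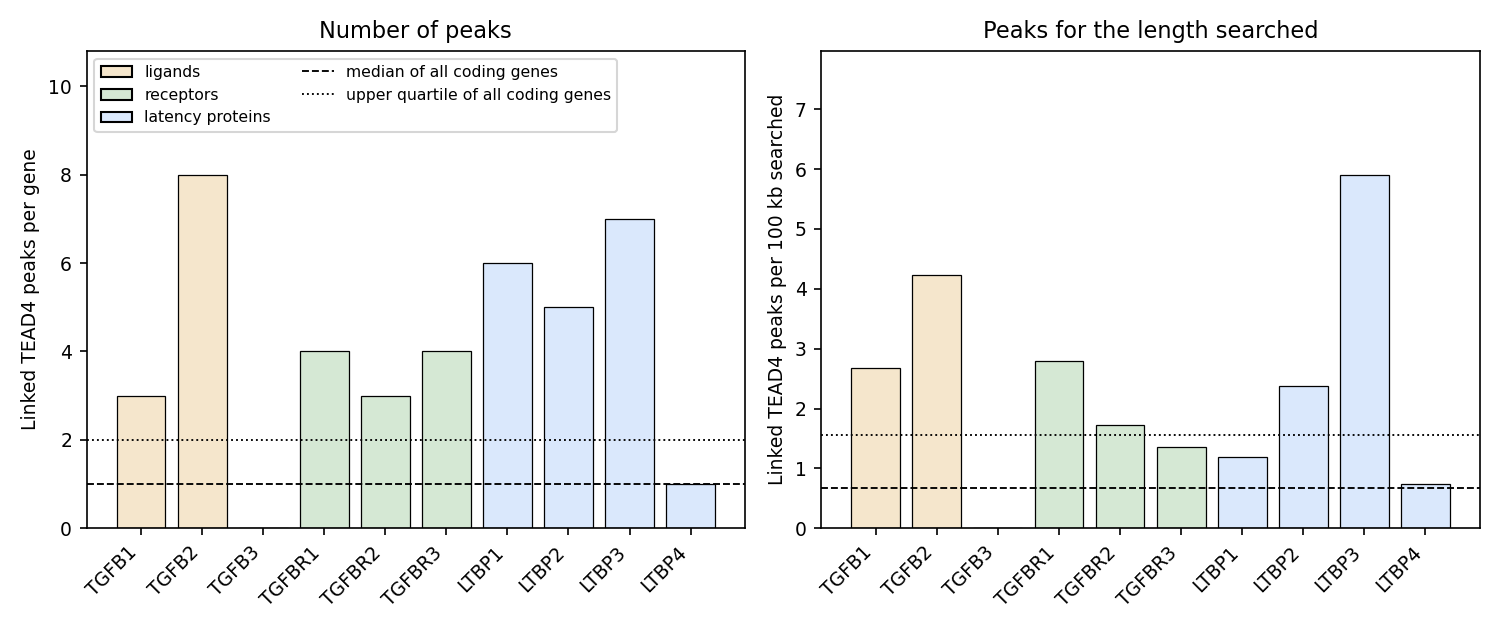
Linked TEAD4 peaks of each member as a number (left) and per 100 kb searched (right), coloured by role. Lines give the median and upper quartile of all protein-coding genes; TGFB2 had the most peaks (8), LTBP3 the most per 100 kb (5.91) and TGFB3 none.

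TGFBR1, the receptor kinase that phosphorylates SMADs, had 4 linked peaks on chromosome 9, where it lies from 99104038 to 99154192 on the plus strand. The peak from 99105776 to 99106219 had its summit in an intron, 848 bp from a TSS, with a signal value of 54.7. Its TEAD motif was the closest to a summit of all 11 found, at 1 bp. The strongest, with a signal value of 96.3, was 49274 bp upstream of a TSS in an intron of COL15A1, a collagen gene whose TSS was closer (16091 bp), and its motif was 7 bp from the summit. A neighbouring peak, also intronic in COL15A1, had a signal value of 55.8, and one 28435 bp upstream 41.8. Only the strongest of the 4 was above the median of the list.

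TGFBR2, which binds the ligand, had 3 linked peaks on chromosome 3 (gene from 30606601 to 30694142, plus strand), and none held the full TEAD motif. The one upstream of the gene held the shorter core CATTCC, centred 4.5 bp from the summit. For all 3 the closest protein-coding TSS was that of TGFBR2. Their signal values were 43.6 at 9124 bp upstream, 92.5 in an intron 53.0 kb from the 5′ end and 89.6 downstream of the gene, the last with an AP-1 motif. Both of the stronger ones were narrow, at 192 and 137 bp. The downstream peak was linked through a TSS annotated inside TGFBR2, 40007 bp away. With the 5′ end as the only TSS the gene had 2 peaks.

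TGFBR3, the co-receptor betaglycan, had 4 linked peaks on chromosome 1 (gene from 91680343 to 91906335, minus strand), all in its introns and all closest to its own TSSs among those of protein-coding genes. The peak from 91900574 to 91900886, 5603 bp from a TSS, had a signal value of 247.7 (rank 1208), the second highest of the 41, and held an AP-1 motif but no TEAD motif. The TEAD motif of TGFBR3 was in a weaker peak 169.2 kb from the 5′ end, with a signal value of 44.9. The other two had signal values of 44.1 and 37.8. Thus 3 of the 4 were below the median of the list.

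LTBP1 encodes a protein that binds latent TGF-beta and anchors it in the matrix, and is the longest of the 10 genes, on chromosome 2 from 32946953 to 33399509 on the plus strand. It had 6 linked peaks, all in its introns and none nearer than 23461 bp to one of its TSSs. Among protein-coding genes, all 6 were closest to LTBP1. In order along the gene their signal values were 63.6, 40.2, 59.7, 107.3, 35.8 and 40.7, so that 1 was above the median of the list. An AP-1 motif was found no more than 100 bp from the summit in 5 of the 6, and the peak without one was the strongest. The last, 408.2 kb from the 5′ end, held a TEAD motif too. For its length the gene had 1.19 peaks per 100 kb, a density reached or passed by 28.6% of protein-coding genes.

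LTBP2, a microfibril protein of the same family that does not bind latent TGF-beta itself, had 5 linked peaks on chromosome 14 (gene from 74498183 to 74612378, minus strand). Its strongest peak, from 74571861 to 74572153, was in an intron 40.4 kb from the 5′ end with a signal value of 149.8 (rank 3290) and held neither motif. The peak closest to its TSS was 7552 bp upstream, with a signal value of 62.1. A pair of peaks beyond the 3′ end lay in intronic sequence of NPC2, with signal values of 93.4, with a TEAD motif 13 bp from the summit, and 33.7. The remaining one, at 53.8, was in an intron of AREL1 and 1880 bp from a TSS of a gene that is not protein-coding. Among protein-coding genes, NPC2 and AREL1 had the closest TSS for these 3.

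LTBP3, which binds and helps to secrete latent TGF-beta, had 7 linked peaks, none in the gene and none closest to it. The gene lies on chromosome 11 from 65538559 to 65558930 on the minus strand, and at 5.91 peaks per 100 kb its density was reached or passed by 0.865% of protein-coding genes. With the 5′ end as the only TSS, LTBP3 had 3 peaks in place of 7. Of the 7, 6 lay beyond its 3′ end, and the summits of 2 of these lay in an exon of the lncRNA MALAT1, with signal values of 93.0 and 46.4. These summits were 61 and 19 bp from a TSS of MALAT1. The strongest peak had a signal value of 107.9 and was 988 bp from a TSS of a gene that is not protein-coding. Another with a signal value of 26.2 had its summit 216 bp away in an overlapping interval. A second overlapping pair, 214 bp apart, had 55.9 and 9.81. The peak at 9.81, which is counted in the 7, had rank 20751 in the list. Its −log10 q-value was 0.386, where the upper end of the list was 4.76. With overlapping peaks merged, LTBP3 had 5. The peak closest to a TSS of LTBP3 (11446 bp), from 65570154 to 65570597, had a signal value of 32.5 and lay 84 bp from a TSS of ZNRD2.

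LTBP4, the member with the fewest peaks after TGFB3, had 1, on chromosome 19 (gene from 40592883 to 40629818, plus strand). It was downstream of the gene, 36048 bp from a TSS of LTBP4 and 19548 bp from one of NUMBL, with a signal value of 58.8. It held neither full motif, but the shorter core CATTCC was centred 14.5 bp from its summit.

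The limit of 50 kb cut through some of these groups of peaks. Just inside it were the peak of TGFBR1 at 49274 bp (signal value 96.3) and that of TGFB2 at 46659 bp (108.0). Just outside it were peaks 51007 bp from a TSS of LTBP3 (97.0), 54949 bp from one of TGFB2 (69.0) and 62664 bp from one of TGFBR1 (53.0).

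Of the 41 peaks, 10 held the TEAD motif no more than 100 bp from the summit (24.4%, interval 13.8 to 39.3%), against 23.0% of all peaks, so the share among the members was close to that of the list. In equally wide windows centred 2000 bp away from the summits of all peaks it was 2.82%. The motif was found in 5 of 11 peaks of ligands (45.5%, interval 21.3 to 72.0%), 3 of 11 of receptors (27.3%, interval 9.75 to 56.6%) and 2 of 19 of latent binding proteins (10.5%, interval 2.94 to 31.4%). These intervals overlap, and the difference was not tested. The median signal value was 78.3 for the 10 peaks with the motif and 56.2 for the 31 without it, and over the whole list it was 82.2 and 64.6. The 11 motifs in these 10 peaks were centred a median of 20 bp from the summit, from 1 to 56 bp.

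The AP-1 motif (TGACTCA or TGAGTCA), bound by JUN and FOS factors, was found in the same window in 14 of the 41 peaks (34.1%, interval 21.6 to 49.5%), against 25.4% of all peaks and 3.43% of the flanking windows. The interval includes the share of the list. By role it was found in 5 of 11 peaks of ligands, 2 of 11 of receptors and 7 of 19 of latent binding proteins. Both motifs occurred together in 2 peaks, one upstream of TGFB1 and one in LTBP1 (4.88%, against 4.49% of all peaks), and 19 peaks held neither (46.3%, against 56.1%). The 15 AP-1 motifs were centred a median of 31 bp from the summit.

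**Figure D4:**
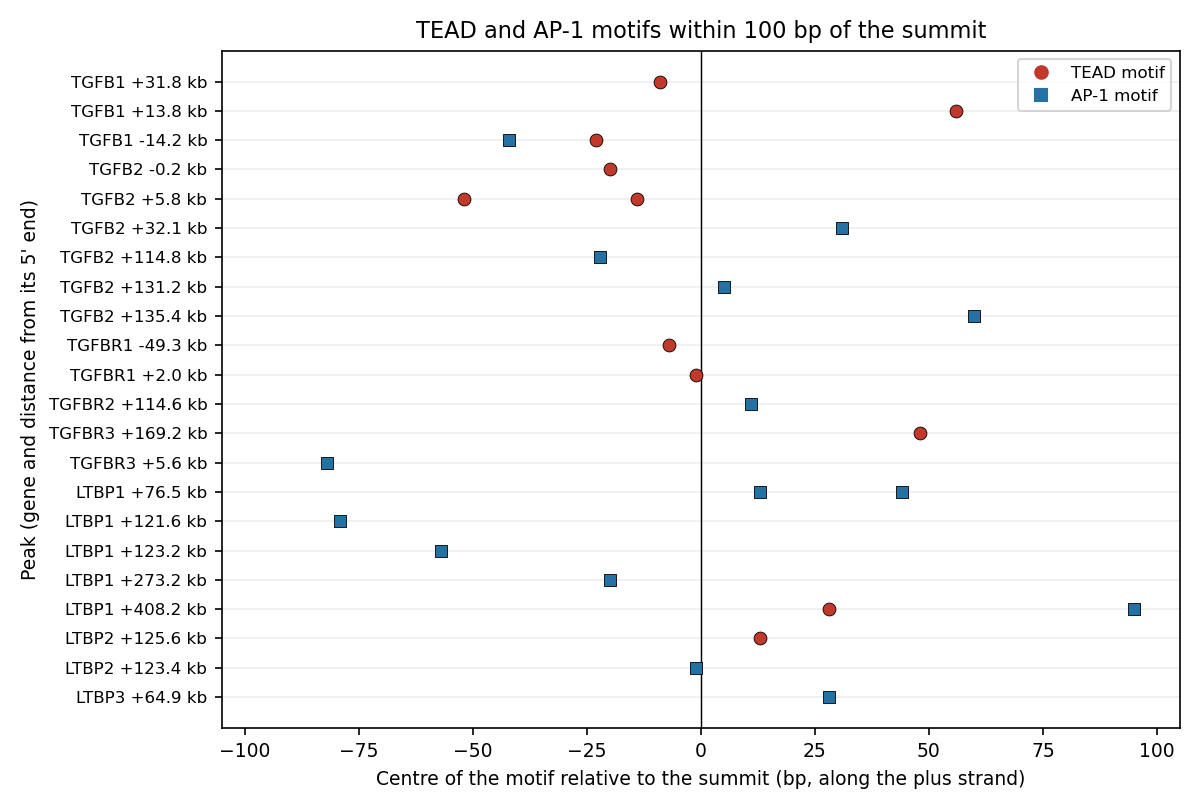
Centre of each TEAD motif (circles) and AP-1 motif (squares) relative to the summit in bp along the plus strand, for the 22 linked peaks with at least 1 of them. All 11 TEAD motifs lie within 56 bp of the summit, and AP-1 motifs reach 95 bp.

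Some windows held sequence found in many places of the genome, where short reads are hard to place. Of the 182 words of 20 bases within 100 bp of each summit, a median of 97.3% occurred once in hg38, both for the members and for all peaks. At least 1 word with 100 or more copies was found in 7 of the 41 windows (17.1%, interval 8.53 to 31.3%), against 10.4% of all peaks. The strongest peak, in TGFB1, was one of them, with 44.5% of its words found once and up to 747 copies of a word, and the peak upstream of TGFB1 was another, with 59.9% and up to 112. Of the 4 peaks in the overlapping pairs near LTBP3, 3 had 20.3 to 29.7% of their words found once and words with up to 319407 copies. The others were a peak of TGFBR1 in COL15A1 (57.1% found once) and the peak of LTBP4 (86.8%). The part of repeated sequence in these signal values was not tested.

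**Figure D5:**
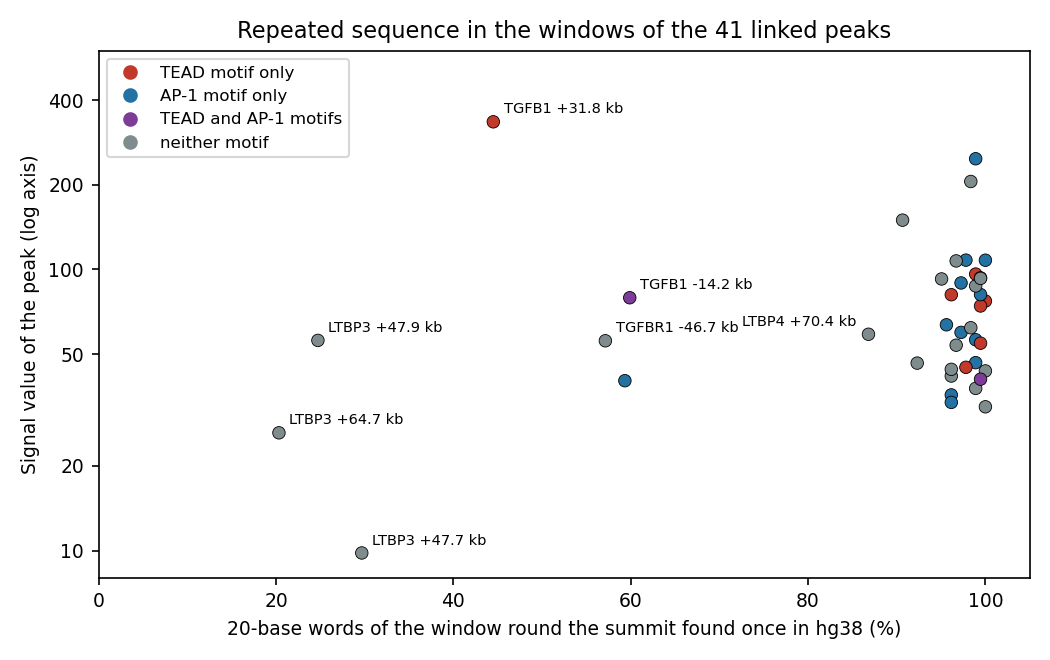
Signal value of each of the 41 linked peaks (log axis) against the percentage of 20-base words around its summit that occur once in hg38. The 7 named peaks hold a word with 100 or more copies; 33 of the 41 peaks sit at 90% or above.

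Other genes of the pathway were counted in the same way, from lists of its known parts. Of 32 such genes, 27 had a linked peak (84.4%, interval 68.2 to 93.1%), against 56.2% of all protein-coding genes. They had 121 peaks in all and a median of 2.5 per gene, against a median of 1 over all protein-coding genes. For the length searched, the medians were 1.29 and 0.667 peaks per 100 kb. In 10 of the 32 a summit lay within 2.5 kb of a TSS, which 16.7% of all protein-coding genes had. The TEAD motif was found in 30 of the 121 peaks (24.8%, interval 18.0 to 33.2%), against 23.0% of all peaks, and the AP-1 motif in 25 (20.7%, interval 14.4 to 28.7%), against 25.4% of all peaks.

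Among 13 activators and carriers of latent TGF-beta, 12 had a peak and NRROS, a carrier on macrophages and microglia, had none. The most were linked to the integrin subunit genes ITGB1 (9), ITGB5 (7) and ITGB6 (7), and of these ITGB5 had the strongest peak (343.4). Of 12 co-receptors and modulators of the receptors, 10 had a peak. The most were linked to DAB2, an endocytic adaptor that binds the receptors, with 14 peaks and a highest signal value of 441.1, and to the ubiquitin ligases SMURF2 (11) and NEDD4L (9), which act on receptors and SMADs. ACVRL1, an alternative type I receptor, and STRAP had none. Of 7 matrix proteins that hold the latent complex or the ligand, 5 had a peak. FBN1, which encodes the microfibril protein fibrillin-1 to which latent binding proteins attach, had 15, the most of all pathway genes counted and more than any of the 10 members. The stretch searched for FBN1 was long, at 329.0 kb. Per 100 kb it had 4.56 peaks, fewer than DAB2 (7.52) and SMURF2 (5.52), among others, and fewer than the member LTBP3 (5.91). FBN2 had 4 linked peaks, FN1 had 3, and EMILIN1 and DCN had none.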

How the data were processed

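TEAD4 was profiled by ChIP-seq in LX-2 cells (3 TEAD4 samples, 2 inputs). Reads were aligned to hg38 by the authors with Chromap. They ran the ENCODE pipeline with IDR (irreproducible discovery rate) on all 3 replicates and again on replicates 1 and 3, kept for their agreement. The deposited list gives per peak a score (scaled IDR), a signal value, the −log10 of a q-value and the offset of the summit, all computed by the authors with the replicates combined. What each column holds was inferred from its place and values. The peak caller and the scale of the signal are not given in the sources used here. The −log10 q-value reached its upper end (4.76) in 19947 of 21113 peaks and was given only for the weakest peak of LTBP3. Depth per sample is unknown, and no reads were analysed here.

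GENCODE release 44 supplied the TSSs and gene bodies of 20007 protein-coding symbols. A peak was linked by its summit, in the gene body or within 50 kb of any TSS, and 28839 such links arose over all genes. Either strand was searched for motifs up to 100 bp from the summit, and in windows centred 2000 bp away. Promoter sequences came from RefSeq (GRCh38.p14). The sequence of 1 peak of TGFB1 and the name of 1 neighbouring gene are not reported here. Intervals are Wilson 95% intervals for shares and order-statistic intervals for medians, and cover counting error over peaks or genes only. No test was run, since there is 1 condition and no value per replicate. For each gene the strongest peak, that closest to a TSS, those with the TEAD motif and those within 2.5 kb of a TSS were described. Other peaks are given as values. For other pathway genes, the 3 with most peaks per list and those with none were named. The members and lists were chosen with earlier results of these data known, and the count of repeated words was added after the sequences were seen. Alternatives changed the set of peaks, the link, the TSSs and the motif and its window. Code was tested on simulated data with Python 3.11.15, numpy 2.4.6, pandas 2.3.3, scipy 1.17.1 and matplotlib 3.10.9.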

Additional observations from a re-analysis of the deposited data

How the results depend on the processing

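Over 8 results, 69 alternatives were run, and 58 left the value within its interval or, for a count, within 1.5 times. When peaks at or under the list's median signal value were dropped, 18 peaks were linked, the median per gene was 1.5 and the median signal value, higher by construction, was 93.2. Linking a peak within 10 kb of a TSS or in the gene body gave 21 peaks, a median of 2 per gene and 95.2% of peaks closest to the member. Linking in the gene body alone gave 18 peaks, a median of 1 and 94.4%. Keeping only peaks whose closest protein-coding TSS was that of the member gave 26 peaks and a median of 2, with none for LTBP3, LTBP4 and TGFB3. With the 5′ end of each gene as its only TSS, LTBP2 and LTBP3 had 3 peaks each, TGFB2 had 4, TGFBR2 had 2 and LTBP4 none. No paired analysis was possible because there is 1 list that combines replicates 1 and 3, and for the same reason no replicate could be left out. The depth of the samples is unknown, so the absence of a peak, as at TGFB3, is not evidence of absent binding.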

Other observations

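The bases within 100 bp of the summits had a median GC content of 41.3% for the members' peaks (interval 39.3 to 45.8%) and 44.8% for all peaks. Peaks narrower than the common width of 444 bp made up 12 of the 41 (29.3%, interval 17.6 to 44.5%) and 36.7% of the list. The narrow peaks of the members had a median signal value of 94.9 and those of 444 bp 53.8, and over the list the values were 131.6 and 51.0.

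The RUNX motif TGTGGTT was present up to 100 bp from the summit in 5 of the 41 peaks (12.2%, interval 5.32 to 25.5%), against 9.53% of all peaks and 3.68% of flanking windows. It was found at TGFB1, TGFB2, TGFBR1, LTBP1 and LTBP2, in 1 peak each, with 2 copies in the peak 32.1 kb from the 5′ end of TGFB2. The shorter core CATTCC was found in 15 of the 41 (36.6%, interval 23.6 to 51.9%) and in 46.8% of all peaks, and it includes every full TEAD motif. Peaks with the core but not the full motif lay 35.3 and 134.5 kb from the 5′ end of TGFB2 and 9124 bp upstream of TGFBR2. The others were the peak of LTBP4 and a peak of LTBP3 with a signal value of 55.9. The TEAD motif read backwards without complement (CCTTACA) was in 0 of the 41, which allows a share of up to 8.57%, and in 2.00% of all peaks.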
